A study of Mus musculus with 18 samples.

Results

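The genes described here are 34 genes of sterol and fatty acid synthesis among the 23420 genes counted in mouse cells undergoing direct cardiac reprogramming. They are a list of gene names, drawn up with earlier results of these data known. They fall into 18 enzymes of the sterol pathway, 5 regulators and sterol carriers, and 11 genes of fatty acid synthesis, desaturation and elongation. All 34 were found in the count tables, Msmo1 under its older symbol Sc4mol, and all 34 passed the filter on low counts. The cells were primary cardiac fibroblasts of newborn CD1 mice, and each library of the second experiment came from cells that had received a retrovirus with Mef2c, Gata4 and Tbx5 joined in 1 transcript, the control libraries included. Its 12 libraries form 4 groups of 3, made with shRNAs against both Mtfr1l and Opa1 (the double knockdown), against Mtfr1l alone (shMtfr1l), against Opa1 alone (shOpa1), or with shNT. Mtfr1l encodes a protein of the outer mitochondrial membrane and Opa1 a GTPase needed for fusion of the inner mitochondrial membrane. In each group, replicates 1, 2 and 3 are titled day 7, day 8 and day 9, so the spread between replicates also holds any difference between days. The labels call the libraries biological replicates without saying that they came from separate isolations of cells, so p-values measure the spread between these libraries. An earlier experiment, the first set, adds 1 sample of shMtfr1l and 1 of shNT at day 7 of reprogramming.

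Cells build cholesterol from acetyl-CoA through mevalonate, farnesyl pyrophosphate, squalene and lanosterol, and the mevalonate stages also feed ubiquinone and protein prenylation. Fatty acids start from the same cytosolic acetyl-CoA, and desaturases and elongases then set their length and double bonds. Both branches are transcribed under SREBP factors, which Scap escorts out of the endoplasmic reticulum when sterols are low and which Insig1 holds back when sterols are high. SREBP-2, from Srebf2, acts mainly on the sterol branch, and SREBP-1c, from Srebf1, mainly on the fatty acid branch. In the heart, fibroblasts make lipids largely for their membranes, and mitochondria export the citrate from which Acly makes acetyl-CoA.

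Depth ran from 16205862 to 25317069 counts per library. Values below in CPM (counts scaled to library size) are scaled by the trimmed mean of M values (TMM), except the marker sums of the first set. Mtfr1l averaged 27.2 ± 4.15 CPM in the double knockdown, 16.4 ± 2.88 CPM in shMtfr1l, 69.6 ± 3.34 CPM in shOpa1 and 71.9 ± 4.17 CPM in shNT (SD, n = 3 each). Opa1 averaged 18.3 ± 2.34 CPM in the double knockdown, 72.1 ± 1.35 CPM in shMtfr1l, 8.96 ± 3.16 CPM in shOpa1 and 63.1 ± 8.33 CPM in shNT (SD, n = 3 each). Each target was therefore less depleted in the double knockdown than under its own shRNA alone, 1.66-fold for Mtfr1l (adjusted p = 8.08e-05) and 2.04-fold for Opa1 (adjusted p = 0.000488, edgeR quasi-likelihood test). The summed CPM of 8 fibroblast markers ran from 34578 to 36838 in the double knockdown, 31530 to 33440 in shMtfr1l, 36546 to 37498 in shOpa1 and 31748 to 34507 in shNT. Single markers in this sum went both ways. Col1a1, the largest, averaged 14481 CPM in the double knockdown, 14002 in shMtfr1l, 13827 in shOpa1 and 12501 in shNT. Tcf21 averaged 262, 293, 280 and 421 CPM in the same order. The summed CPM of 9 cardiomyocyte markers ran from 1858 to 1912 in the double knockdown, 3054 to 3273 in shMtfr1l, 1427 to 1576 in shOpa1 and 2342 to 2399 in shNT. The sum of 5 epicardial and mesothelial markers ran from 133 to 154 CPM in the double knockdown, 127 to 132 in shMtfr1l, 139 to 162 in shOpa1 and 187 to 202 in shNT. Hepatocyte markers were at or near 0 in every library. In such bulk RNA, fewer cells of a type and less RNA per cell cannot be told apart.

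One library stood apart. Replicate 1 of shMtfr1l held 15.2 CPM of Adipoq, 5.98 CPM of Plin1, 9.25 CPM of Cfd, 47.8 CPM of Fabp4, 13.7 CPM of Lep and 19.3 CPM of Cidec, markers of fat cells. Its 7 adipocyte markers summed to 115 CPM, against 4.64 to 7.74 CPM in the other 11 libraries, where Adipoq, Plin1, Lep and Cidec were all at 0. Pparg, the remaining listed marker, was at 3.85 CPM in shMtfr1l replicate 1, inside the range of 1.89 to 5.37 CPM elsewhere. Scd1, a desaturase that fat cells express strongly, reached 241 CPM in that library and 150.3 and 141 CPM in the other shMtfr1l libraries, a ratio of 1.66 to their mean. For the other 33 genes this ratio lay between 0.778, for Idi1, and 1.30, for Tm7sf2. The part of the adipocyte markers in these results was not tested, and results that rest on this library are given with and without it.

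**Figure D1:**
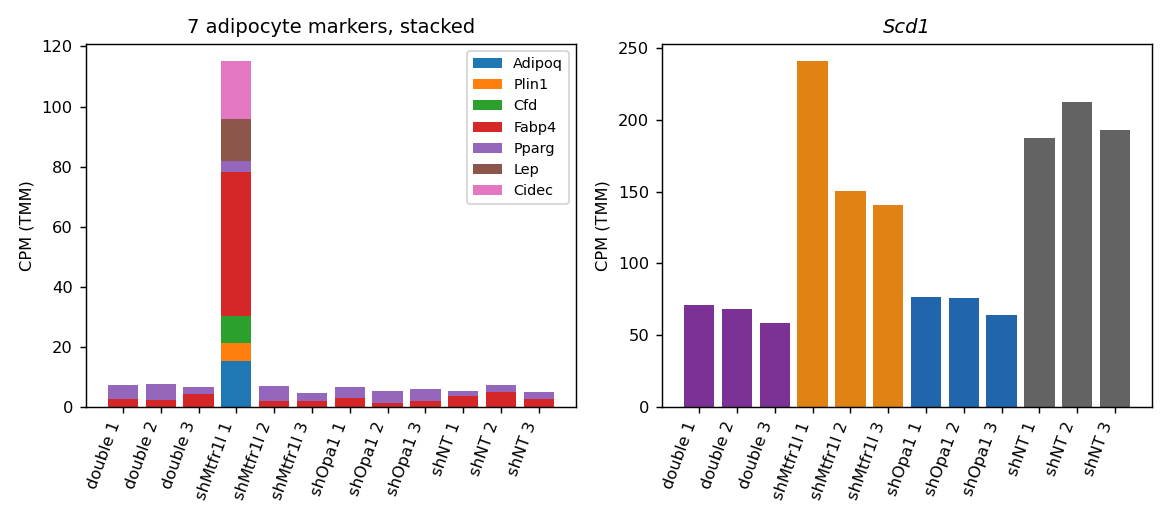
Summed CPM of 7 adipocyte markers (left, stacked by gene) and CPM of Scd1 (right) in each of the 12 libraries, from the double knockdown at the left to shNT at the right. The marker sum is 115 CPM in shMtfr1l replicate 1 and at most 7.74 CPM elsewhere, and Scd1 is 241 CPM in that library.

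All 3 knockdowns lowered genes of both branches, and no member was called higher against shNT, where 11.8% of all genes were in the double knockdown, 5% in shMtfr1l and 14% in shOpa1. In the double knockdown 26 of the 34 genes were called lower, where 11.6% of all 14162 tested genes were. In shMtfr1l 18 of 34 were called lower, where 4.79% of all genes were. In shOpa1 23 of 34 were called lower, where 14.8% of all genes were. Calls are adjusted p-values under 0.05 in the edgeR quasi-likelihood test. The median log2 fold change of the 34 genes was -0.58 in the double knockdown, -0.26 in shMtfr1l and -0.41 in shOpa1, and that of all genes in shMtfr1l was 0.003. These 3 comparisons share the shNT libraries, so their values stand side by side here and are not independent of each other.

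**Figure D2:**
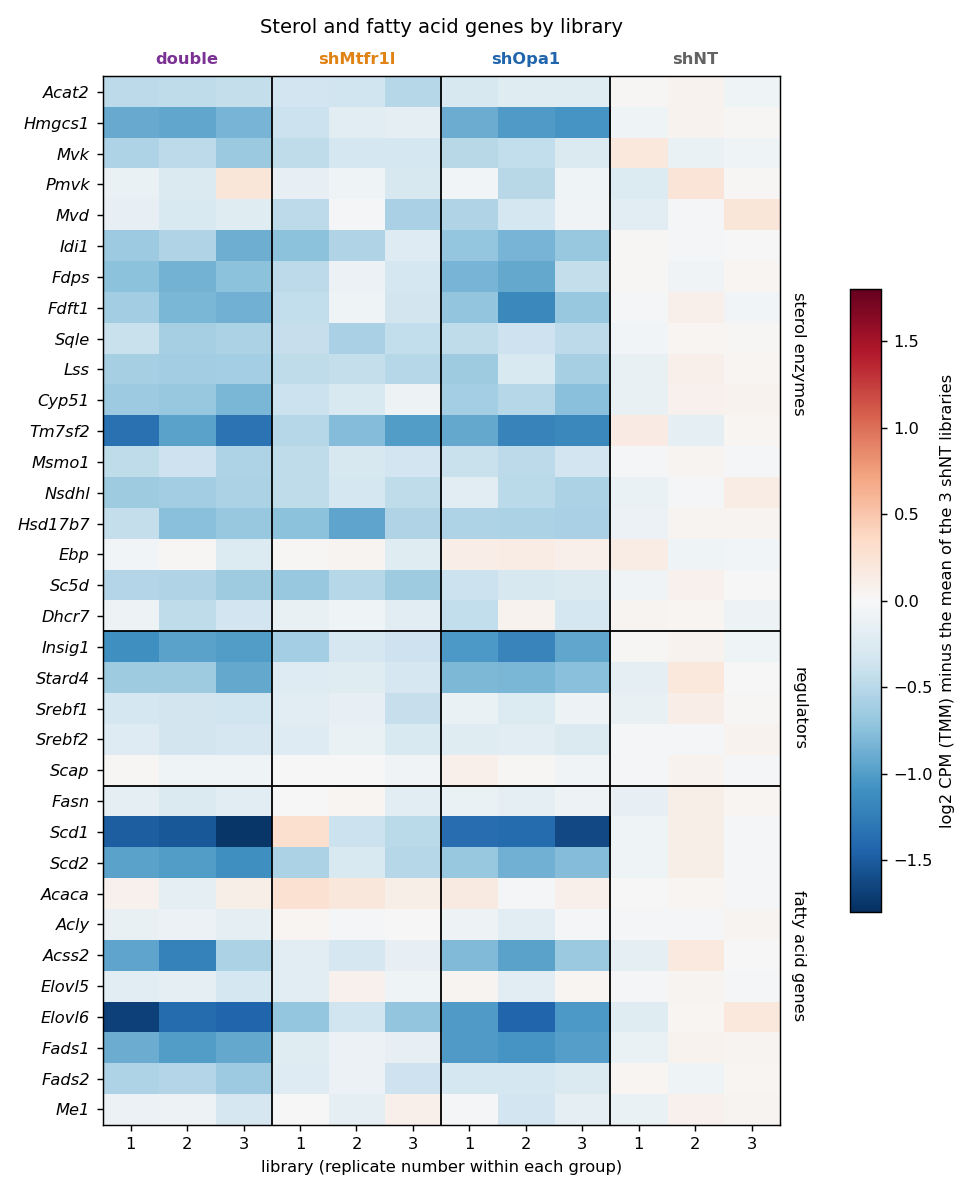
Log2 CPM of each of the 34 genes in each library minus the mean of the 3 shNT libraries (colour, blue for lower and red for higher), with columns grouped as double knockdown, shMtfr1l, shOpa1 and shNT and rows grouped as sterol enzymes, regulators and fatty acid genes. Sums over the sterol enzymes were 634 to 679 CPM in the double knockdown, 737 to 799 in shMtfr1l, 686 to 689 in shOpa1 and 966 to 1025 in shNT.

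Each branch held part of these calls, and whether their shares differ was not tested. Among the 18 sterol enzymes, 14 were called lower in the double knockdown, 12 in shMtfr1l and 14 in shOpa1. Among the 11 fatty acid genes, 8 were called lower in the double knockdown, 3 in shMtfr1l and 6 in shOpa1. Of the 5 regulators, 4 were called lower in the double knockdown, 3 in shMtfr1l and 3 in shOpa1. The median log2 fold change of the sterol enzymes was -0.60 in the double knockdown, -0.36 in shMtfr1l and -0.43 in shOpa1, and that of the fatty acid genes was -0.58, -0.16 and -0.30 in the same order. Summed over the fatty acid genes, libraries held 1093 to 1155 CPM in the double knockdown, 1482 to 1633 in shMtfr1l, 1169 to 1270 in shOpa1 and 1719 to 1910 in shNT, and no knockdown library reached the lowest shNT library. No overlap with shNT, on the lower side, was seen for 28 of the 34 genes in the double knockdown (19.0% of all genes), 20 in shMtfr1l (12.3%) and 23 in shOpa1 (20.3%).

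The count in shMtfr1l changed when single libraries were left out. Such fits use fewer samples, and the shares of all genes called in them are not given here. Without shMtfr1l replicate 1, 12 of 34 genes were called lower there, 9 sterol enzymes, 1 regulator and 2 fatty acid genes, and 11 of them were among the 18. Without shNT replicate 3 the count was 10. Leaving out all 4 libraries of replicate number 1, 2 or 3 gave 10, 11 and 11. Sqle, Lss, Hsd17b7, Sc5d, Insig1 and Scd2 were called lower in shMtfr1l under each of the 16 alternatives run. Beside these calls, 7 of 9 cardiomyocyte markers were called higher and 1 lower in shMtfr1l, 7 of 9 lower in shOpa1, and 4 lower and 1 higher in the double knockdown. Of 8 fibroblast markers, 3 were called lower and 2 higher in the double knockdown, 3 lower and 1 higher in shMtfr1l, and 3 lower and 3 higher in shOpa1. Of 5 epicardial and mesothelial markers, 4 were called lower in the double knockdown, 3 in shMtfr1l and 2 in shOpa1. Of 6 macrophage and leukocyte markers, 5 were called higher in the double knockdown and 1 in shOpa1, with sums of 523 to 682 CPM in the double knockdown, 133 to 478 in shMtfr1l, 230 to 550 in shOpa1 and 258 to 366 in shNT. Sums of 4 smooth muscle markers lay below shNT in every knockdown, at 147 to 164 CPM in the double knockdown, 159 to 170 in shMtfr1l, 156 to 173 in shOpa1 and 176 to 180.4 in shNT. Of these 4, 1 was called lower and none higher in each knockdown. By any amount, 1 was higher in the double knockdown, 2 in shMtfr1l and 2 in shOpa1. Cnn1 averaged 17.1 CPM in the double knockdown, 20.8 in shMtfr1l, 20.1 in shOpa1 and 33.5 in shNT. Myh11 averaged 21.6, 22.1, 21.2 and 20.1 CPM in the same order. The sums of 6 markers of dividing cells were 374 to 411 CPM in the double knockdown, 335 to 385 in shMtfr1l, 320.1 to 378 in shOpa1 and 321 to 323 in shNT. Those of 5 endothelial markers were 25.1 to 27.6 CPM in the double knockdown, 32.7 to 37.8 in shMtfr1l, 15.2 to 24.2 in shOpa1 and 19.6 to 27.2 in shNT. The part of these cell type markers in the lower sterol and fatty acid genes was not tested.

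**Figure D3:**
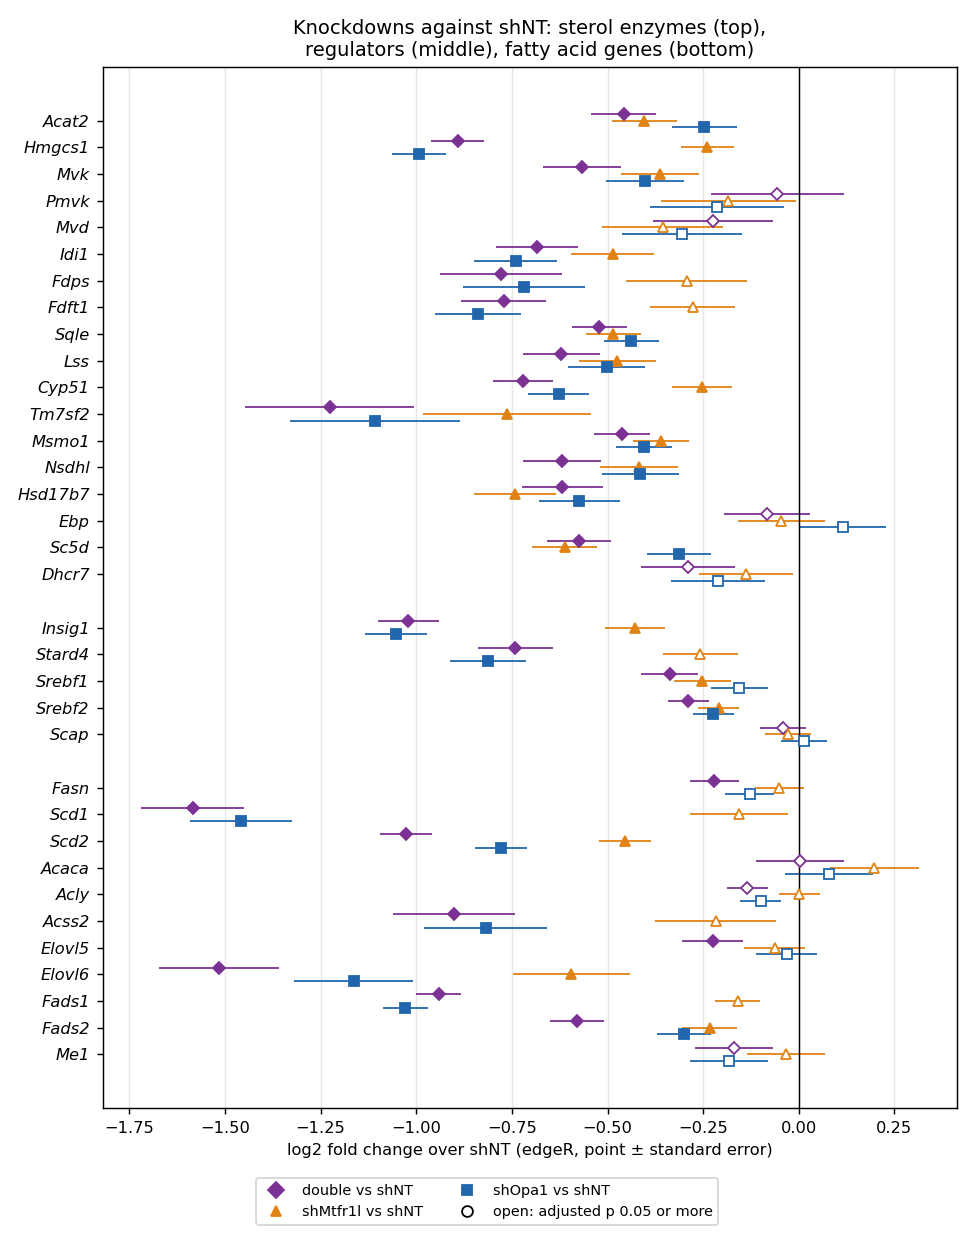
Log2 fold change over shNT with its standard error for each of the 34 genes in the double knockdown (diamonds), shMtfr1l (triangles) and shOpa1 (squares), with open symbols where the adjusted p was 0.05 or more. Scd1 stands at -1.58 in the double knockdown and -1.46 in shOpa1, and at -0.16 with an open symbol in shMtfr1l.

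Per kilobase of gene model, the most abundant of the 34 genes in shNT were Scd2, with 116 RPKM (counts per kilobase of gene model, scaled to library size as CPM is), Fads1 with 69.7, Fads2 with 66.0, Srebf2 with 54.6 and Insig1 with 51.2 RPKM. Among the sterol enzymes Msmo1 had 45.5 and Hmgcs1 43.3 RPKM. Acaca had 2.40, Elovl6 4.38 and Tm7sf2 6.42 RPKM. The desaturases Scd2, Fads1 and Fads2 were thus the most abundant members by this measure, and the rate-setting carboxylase of fatty acid synthesis, Acaca, the least abundant.

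Because several of these genes moved together, the upstream 250 bases of 5 of them are shown here, from RefSeq on GRCm38.p6, the assembly that mm10 names. Hmgcs1 and Insig1 were among the members that fell most in shOpa1, Hsd17b7 had the largest of the interactions called, Elovl6 is a fatty acid gene called lower in all 3 knockdowns, and Fasn is one that moved little. Sequences run 5′ to 3′ on the strand of the gene and end at the base before its start, and capitals mark matches to CACNCCAC, the core of the sterol response element, and to CCAAT, the NF-Y box, on either strand.
Hmgcs1 (chr13:119690101-119690350, plus strand): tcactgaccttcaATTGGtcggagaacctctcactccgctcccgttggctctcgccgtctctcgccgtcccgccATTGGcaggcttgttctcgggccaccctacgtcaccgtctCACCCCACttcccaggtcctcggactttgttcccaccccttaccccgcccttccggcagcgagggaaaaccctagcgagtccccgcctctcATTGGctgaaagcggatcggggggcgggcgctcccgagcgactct
Insig1 (chr5:28071162-28071411, plus strand): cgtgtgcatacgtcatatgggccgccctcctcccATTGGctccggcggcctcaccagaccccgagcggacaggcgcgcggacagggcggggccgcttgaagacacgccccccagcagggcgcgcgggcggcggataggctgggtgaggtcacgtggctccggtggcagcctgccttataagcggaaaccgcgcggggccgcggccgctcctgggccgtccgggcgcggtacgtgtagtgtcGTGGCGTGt
Hsd17b7 (chr1:169969206-169969455, minus strand): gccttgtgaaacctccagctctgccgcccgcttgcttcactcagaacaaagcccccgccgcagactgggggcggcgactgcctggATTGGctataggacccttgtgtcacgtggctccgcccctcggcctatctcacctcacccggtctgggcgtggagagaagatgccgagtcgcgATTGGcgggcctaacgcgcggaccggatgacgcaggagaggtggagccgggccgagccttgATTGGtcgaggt
Fasn (chr11:120824548-120824797, minus strand): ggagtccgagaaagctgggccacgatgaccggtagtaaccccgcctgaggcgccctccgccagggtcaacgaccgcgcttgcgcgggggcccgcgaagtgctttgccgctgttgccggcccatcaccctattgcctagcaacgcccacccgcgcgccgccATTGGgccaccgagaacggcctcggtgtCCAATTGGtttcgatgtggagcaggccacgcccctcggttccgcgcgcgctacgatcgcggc
Elovl6 (chr3:129532136-129532385, plus strand): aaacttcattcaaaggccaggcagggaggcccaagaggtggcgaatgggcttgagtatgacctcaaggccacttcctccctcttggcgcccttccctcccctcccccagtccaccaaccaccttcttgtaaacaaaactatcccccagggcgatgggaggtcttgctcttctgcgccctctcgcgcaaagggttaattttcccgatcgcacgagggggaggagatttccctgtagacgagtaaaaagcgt
Over windows from 250 bases before to 50 after the start, 27 of the 34 genes had an entry. Fdps, Fdft1, Sqle, Stard4, Scd1, Scd2 and Fads1 had none.

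CCAAT, read on both strands, lay in the windows of 22 of these 27 genes (81.5%), against 41.1% of the 27018 genes in the table. It was found for 14 of 15 sterol enzymes, 3 of 4 regulators and 5 of 8 fatty acid genes. GGGCGG, the GC box, was also found for 22 of 27 (81.5%), against 38.2% of all genes. The longer sterol response element TCACNCCAC was found only for Hmgcs1 among the 27, and in 1.44% of all genes. Its core CACNCCAC, which lies inside that motif, was found for Acat2, Hmgcs1 and Insig1 (11.1%), against 7.12% of all genes. CACGTG, the E-box, was found for 6 genes (22.2%), against 8.09%. In the sequences shown, Hmgcs1, Hsd17b7 and Fasn hold 3 CCAAT matches each, Insig1 holds 1 and Elovl6 none. These are matches of letters in a fixed window, and they were not tested against the fold changes. The base composition of the windows was not compared with that of other promoters. The 27018 genes were not limited to the 14162 that passed the filter on low counts, as all 34 members did. Shares over expressed genes alone were not computed.

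The first steps of the sterol branch condense acetyl-CoA to mevalonate. Hmgcs1, the cytosolic HMG-CoA synthase, had 75.5, 74.5 and 79.8 CPM in the double knockdown, 109, 125 and 127 CPM in shMtfr1l, 76.7, 69.7 and 67.9 CPM in shOpa1, and 135, 148 and 144 CPM in shNT. All libraries with Opa1 shRNA lay well below both other groups, and shMtfr1l lay just below shNT without overlap. Its log2 fold change was -0.89 ± 0.070 in the double knockdown (adjusted p = 3.64e-09) and -0.99 ± 0.070 in shOpa1 (adjusted p = 2.86e-10, SE, edgeR quasi-likelihood test). In shMtfr1l it was called lower in the fit of all libraries, but the Hmgcs1 call ended on leaving out shMtfr1l replicate 1 (adjusted p = 0.192) and also on leaving out replicate 2 (0.124) or 3 (0.0886) of shNT. Acat2, the cytosolic thiolase before it, fell by 0.40 ± 0.085 on the log2 scale in shMtfr1l (adjusted p = 0.00285, edgeR). Its call in shOpa1 was lost when any 1 of 5 libraries was left out, namely shNT replicate 1 or 2 or any of the 3 shOpa1 libraries, with adjusted p from 0.0536 to 0.116.

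The middle steps turn mevalonate into farnesyl pyrophosphate and squalene. Of the kinase Mvk, the kinase Pmvk, the decarboxylase Mvd and the isomerase Idi1, both Mvk and Idi1 were called lower in all 3 knockdowns. Pmvk and Mvd were called in none, at 12.3 ± 2.17 and 17.3 ± 0.776 CPM in the double knockdown and 12.7 ± 2.12 and 20.2 ± 2.86 CPM in shNT (SD, n = 3 each). Idi1 fell by 0.74 ± 0.11 on the log2 scale in shOpa1 (adjusted p = 1.39e-05, edgeR). Mvk lost its call in shMtfr1l without shNT replicate 1 (adjusted p = 0.162) or shMtfr1l replicate 1 (adjusted p = 0.119). Fdft1, squalene synthase, had 44.8, 39.1 and 38.0 CPM in the double knockdown, 51.1, 65.6 and 55.0 CPM in shMtfr1l, 42.2, 30.9 and 43.3 CPM in shOpa1, and 67.6, 73.6 and 66.8 CPM in shNT. The highest shMtfr1l library came close to the lowest shNT library without reaching it, while the double knockdown and shOpa1 lay clearly below. Fdft1 changed by -0.77 ± 0.11 in the double knockdown (adjusted p = 2.15e-05) and by -0.84 ± 0.11 in shOpa1 (adjusted p = 4.22e-06, log2, SE, edgeR), and was not called in shMtfr1l. Fdps, farnesyl pyrophosphate synthase, was likewise called lower in the double knockdown and in shOpa1 and not in shMtfr1l.

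Squalene epoxidase, lanosterol synthase and lanosterol demethylase were called lower in every knockdown. Sqle, which opens this stretch and limits its flux, had 70.3, 61.6 and 62.7 CPM in the double knockdown, 69.5, 61.9 and 68.2 CPM in shMtfr1l, 67.8, 71.7 and 66.8 CPM in shOpa1, and 89.7, 95.4 and 94.1 CPM in shNT. The 3 knockdown groups overlapped each other and all lay below shNT. Its log2 fold change was -0.52 ± 0.072 in the double knockdown (adjusted p = 1.20e-05), -0.48 ± 0.072 in shMtfr1l (adjusted p = 7.16e-05) and -0.44 ± 0.072 in shOpa1 (adjusted p = 5.53e-05, SE, edgeR). Lss, lanosterol synthase, fell by 0.47 ± 0.10 in shMtfr1l (adjusted p = 0.00321, log2, edgeR) and was called lower in the other knockdowns. Cyp51, the lanosterol demethylase, had 91.4, 89.7 and 81.4 CPM in the double knockdown, 109.8, 119 and 135 CPM in shMtfr1l, 94.2, 101 and 85.1 CPM in shOpa1, and 132, 151 and 149.6 CPM in shNT. In shMtfr1l its highest library overlapped the lowest shNT library, and the other knockdowns did not overlap shNT. Cyp51 fell by 0.72 ± 0.079 in the double knockdown (adjusted p = 6.27e-07) and by 0.63 ± 0.079 in shOpa1 (adjusted p = 1.97e-06, log2, edgeR). Its call in shMtfr1l (adjusted p = 0.0433) was lost with the replicate number as a block (adjusted p = 0.0631, replicate block) and when shMtfr1l replicate 1 or 2, or shNT replicate 2 or 3, was left out (adjusted p from 0.110 to 0.233).

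The late steps strip methyl groups from lanosterol and place the double bonds of cholesterol. Tm7sf2, a sterol reductase, had 4.04 ± 0.643 CPM in the double knockdown, 5.58 ± 0.983 CPM in shMtfr1l, 4.40 ± 0.486 CPM in shOpa1 and 9.49 ± 1.06 CPM in shNT (SD, n = 3 each). Tm7sf2 was called lower in all 3 knockdowns, but the call in shMtfr1l ended on leaving out replicate 2 or 3 of that group, or replicate 1 or 3 of shNT (adjusted p from 0.0724 to 0.115). Msmo1, the methyl oxidase, fell by 0.46 ± 0.073 in the double knockdown (adjusted p = 5.98e-05), 0.36 ± 0.073 in shMtfr1l (adjusted p = 0.00199) and 0.40 ± 0.073 in shOpa1 (adjusted p = 0.000163, log2, edgeR). Nsdhl, the dehydrogenase that follows, was called lower in all 3, in shMtfr1l not without shNT replicate 3 (adjusted p = 0.0692).

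Hsd17b7, the ketosteroid reductase of this stretch, had 36.1, 29.1 and 30.5 CPM in the double knockdown, 29.2, 25.2 and 33.4 CPM in shMtfr1l, 33.2, 32.8 and 32.7 CPM in shOpa1, and 45.5, 50.5 and 50.8 CPM in shNT. Every knockdown library lay below every shNT library. Hsd17b7 fell by 0.74 ± 0.11 on the log2 scale in shMtfr1l (adjusted p = 4.66e-05, edgeR). Sc5d, the lathosterol desaturase, had 36.9, 36.7 and 34.2 CPM in the double knockdown, 33.2, 37.5 and 34.3 CPM in shMtfr1l, 40.6, 43.8 and 44.6 CPM in shOpa1, and 50.9, 56.2 and 53.3 CPM in shNT. The shOpa1 libraries lay between shNT and both groups with Mtfr1l shRNA, with no overlap on either side. Sc5d fell by 0.57 ± 0.085 in the double knockdown (adjusted p = 2.72e-05) and by 0.61 ± 0.086 in shMtfr1l (adjusted p = 3.29e-05, log2, edgeR). The isomerase Ebp and the last reductase Dhcr7 were called in none of the knockdowns, and in the double knockdown their ratios to shNT were 0.944 for Ebp (95% interval 0.803 to 1.11) and 0.818 for Dhcr7 (0.687 to 0.976). Without replicate 1 of the double knockdown, Dhcr7 was called lower in that group (adjusted p = 0.0376, edgeR).

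**Figure D4:**
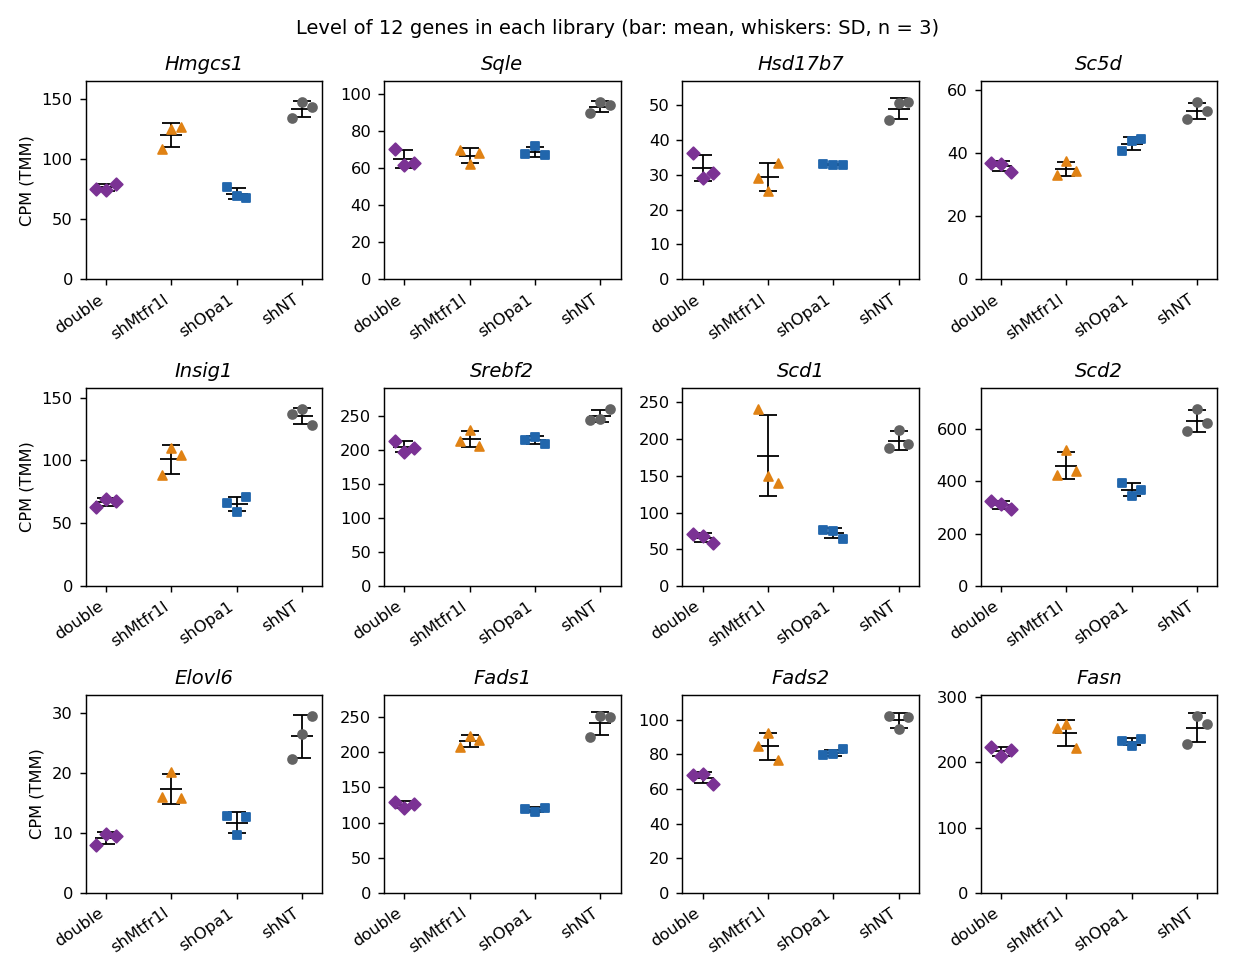
CPM of 12 of the genes in each library (symbols), with the mean and SD of 3 libraries per group, in the order double knockdown, shMtfr1l, shOpa1 and shNT. Hmgcs1, Insig1, Scd1 and Fads1 are lower with Opa1 shRNA than with Mtfr1l shRNA alone, Sc5d is lowest with Mtfr1l shRNA, and Fasn differs little.

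Among the regulators, Insig1 fell furthest. Insig1, which retains the Scap complex and is itself an SREBP target, had 63.2, 69.7 and 67.4 CPM in the double knockdown, 88.2, 109.6 and 105 CPM in shMtfr1l, 65.9, 59.3 and 70.8 CPM in shOpa1, and 137, 141 and 128 CPM in shNT. No knockdown group overlapped shNT, and shMtfr1l lay above both other knockdowns. Its log2 fold change was -1.02 ± 0.080 in the double knockdown (adjusted p = 3.67e-09), -0.43 ± 0.079 in shMtfr1l (adjusted p = 0.000851) and -1.05 ± 0.080 in shOpa1 (adjusted p = 9.79e-10, SE, edgeR). Stard4, a cytosolic sterol carrier, had 36.5, 36.5 and 30.0 CPM in the double knockdown, 48.5, 49.2 and 46.4 CPM in shMtfr1l, 32.4, 32.1 and 33.7 CPM in shOpa1, and 50.2, 65.3 and 56.5 CPM in shNT. The shMtfr1l libraries lay just under the lowest shNT library, and the gene was not called there. Stard4 fell by 0.74 ± 0.098 in the double knockdown (adjusted p = 7.74e-06) and by 0.81 ± 0.099 in shOpa1 (adjusted p = 1.22e-06, log2, edgeR).

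The transcripts of the SREBP factors themselves moved less. Srebf2 had 213, 197 and 202 CPM in the double knockdown, 213, 229 and 206 CPM in shMtfr1l, 214, 219 and 208 CPM in shOpa1, and 244, 245 and 259.8 CPM in shNT. All knockdown libraries lay below all shNT libraries. Srebf2 fell by 0.29 ± 0.054 in the double knockdown (adjusted p = 0.000427), 0.21 ± 0.055 in shMtfr1l (adjusted p = 0.0147) and 0.22 ± 0.054 in shOpa1 (adjusted p = 0.00308, log2, edgeR). Its call in shMtfr1l was lost without shNT replicate 3 (adjusted p = 0.0820), shMtfr1l replicate 1 (0.0583) or shMtfr1l replicate 3 (0.0732). Srebf1 had 98.7, 98.0 and 95.8 CPM in the double knockdown, 107, 111 and 91.8 CPM in shMtfr1l, 113, 103 and 115 CPM in shOpa1, and 112, 133 and 124 CPM in shNT. The double knockdown and shMtfr1l lay below every shNT library, while shOpa1 overlapped shNT. Srebf1 fell by 0.34 ± 0.075 in the double knockdown (adjusted p = 0.00185) and 0.25 ± 0.075 in shMtfr1l (adjusted p = 0.0336, log2, edgeR), and was not called in shOpa1. In shMtfr1l the Srebf1 call was lost with the replicate block (adjusted p = 0.0540) and without shNT replicate 2 (0.193), shNT replicate 3 (0.0942), shMtfr1l replicate 1 (0.0558) or shMtfr1l replicate 3 (0.185). Scap, the escort, was called in no knockdown, with a ratio to shNT of 0.971 in the double knockdown (95% interval 0.891 to 1.06), 0.980 in shMtfr1l (0.899 to 1.07) and 1.01 in shOpa1 (0.926 to 1.10).

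In the fatty acid branch Scd1, Scd2, Elovl6, Fads1 and Acss2 fell most with Opa1 shRNA, and Fasn, Acly and Acaca, which lead to palmitate, stayed near shNT. Scd1, which makes monounsaturated fatty acids, had 70.8, 68.4 and 58.5 CPM in the double knockdown, 241, 150.3 and 141 CPM in shMtfr1l, 76.5, 75.6 and 63.9 CPM in shOpa1, and 188, 212 and 193 CPM in shNT. Every library with Opa1 shRNA lay far below every other library, and the shMtfr1l libraries lay on both sides of shNT. Scd1 fell by 1.58 ± 0.13 in the double knockdown (adjusted p = 1.24e-08) and by 1.46 ± 0.13 in shOpa1 (adjusted p = 1.89e-08, log2, edgeR). In shMtfr1l it was not called (log2 fold change -0.16, adjusted p = 0.546) with all libraries and was called lower without replicate 1 of that group, the library with adipocyte markers (log2 fold change -0.44, adjusted p = 0.00261). Scd2, the isoform most abundant here, had 323, 312 and 293 CPM in the double knockdown, 422, 519 and 439 CPM in shMtfr1l, 393, 344 and 365 CPM in shOpa1, and 593, 675 and 621 CPM in shNT. The groups did not overlap and stood in the order double knockdown, shOpa1, shMtfr1l and shNT, low to high. Scd2 fell by 1.03 ± 0.068 in the double knockdown (adjusted p = 4.53e-10), 0.45 ± 0.068 in shMtfr1l (adjusted p = 7.26e-05) and 0.78 ± 0.068 in shOpa1 (adjusted p = 9.21e-09, log2, edgeR). Scd1 and Scd2 are close copies, and reads that fit several genes were not counted, so their levels rest on the parts that differ.

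Elovl6, which lengthens palmitate to stearate, had 8.01, 9.81 and 9.53 CPM in the double knockdown, 15.9, 20.1 and 15.8 CPM in shMtfr1l, 12.7, 9.61 and 12.6 CPM in shOpa1, and 22.3, 26.4 and 29.4 CPM in shNT. The double knockdown and shOpa1 overlapped at 1 library, and shMtfr1l lay between them and shNT. Elovl6 fell by 1.52 ± 0.16 in the double knockdown (adjusted p = 2.75e-07), 0.59 ± 0.15 in shMtfr1l (adjusted p = 0.0139) and 1.16 ± 0.16 in shOpa1 (adjusted p = 4.31e-06, log2, edgeR). Its call in shMtfr1l was lost without shNT replicate 3 (adjusted p = 0.0892), shMtfr1l replicate 1 (0.0755) or shMtfr1l replicate 3 (0.0571). Elovl5, which lengthens polyunsaturated fatty acids, was called lower only in the double knockdown, and not with the replicate block (adjusted p = 0.0659), nor when any 1 library of either group was left out (adjusted p from 0.0588 to 0.176).

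Of the front-end desaturases that make polyunsaturated fatty acids, Fads1 was called lower in both groups with Opa1 shRNA and Fads2 in every knockdown. Fads1 had 129.5, 120.2 and 127 CPM in the double knockdown, 207, 224 and 217 CPM in shMtfr1l, 119, 115 and 121 CPM in shOpa1, and 222, 252 and 249.6 CPM in shNT. The shMtfr1l libraries overlapped shNT, and the libraries with Opa1 shRNA were far below it. Fads1 fell by 0.94 ± 0.059 in the double knockdown (adjusted p = 1.73e-10) and 1.03 ± 0.059 in shOpa1 (adjusted p = 9.36e-12, log2, edgeR), and was not called in shMtfr1l. Fads2 had 67.7, 68.7 and 63.0 CPM in the double knockdown, 84.7, 92.3 and 76.8 CPM in shMtfr1l, 79.6, 79.9 and 82.9 CPM in shOpa1, and 102, 94.6 and 102 CPM in shNT. The double knockdown lay below both single knockdowns without overlap. Fads2 fell by 0.58 ± 0.071 in the double knockdown (adjusted p = 2.71e-06) and by 0.23 ± 0.071 in shMtfr1l (adjusted p = 0.0383, log2, edgeR), and was called lower in shOpa1. In shMtfr1l the Fads2 call was lost with the replicate block (adjusted p = 0.0544) and in a fit of shMtfr1l and shNT alone. It was also lost without shNT replicate 1 (0.113), shNT replicate 3 (0.123), shMtfr1l replicate 1 (0.0972) or shMtfr1l replicate 3 (0.193).

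The enzymes from citrate to palmitate stood near shNT. Fasn, fatty acid synthase, had 223, 209.9 and 218 CPM in the double knockdown, 252, 259 and 222 CPM in shMtfr1l, 233, 226 and 236 CPM in shOpa1, and 228, 271 and 259 CPM in shNT. Its ranges in shMtfr1l and shOpa1 overlapped that of shNT, and it was called lower in the double knockdown only, at a ratio of 0.858 (95% interval 0.782 to 0.940). That Fasn call was lost without shNT replicate 2 (adjusted p = 0.103), shNT replicate 3 (0.0597) or double-knockdown replicate 2 (0.0666). Acly, ATP citrate lyase, had a ratio to shNT of 0.911 in the double knockdown (95% interval 0.844 to 0.983), 1.00 in shMtfr1l (0.927 to 1.08) and 0.933 in shOpa1 (0.865 to 1.01) and was called in none. Acaca, acetyl-CoA carboxylase, and Me1, the malic enzyme that supplies NADPH, were called in none either. With DESeq2 in place of edgeR, Acly was called lower in the double knockdown (adjusted p = 0.0297, DESeq2). Acss2, which makes acetyl-CoA from acetate, averaged 11.1 ± 2.57 CPM in the double knockdown, 17.8 ± 0.981 CPM in shMtfr1l, 11.7 ± 1.23 CPM in shOpa1 and 20.7 ± 2.52 CPM in shNT (SD, n = 3 each). It was called lower in the double knockdown and in shOpa1 and not in shMtfr1l.

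The single knockdowns were then set against each other directly, a comparison added after the values had been seen. Its fold changes do not use the shNT libraries, but its p-values do, through the spread estimated over all 12. Against shMtfr1l, 11 of the 34 genes were called lower in shOpa1, where 15.9% of all genes were, and 1 was called higher, where 14.6% of all genes were. The genes called lower in shOpa1 were the sterol enzymes Hmgcs1 (log2 fold change -0.75 ± 0.070, adjusted p = 1.86e-08), Fdps, Fdft1 and Cyp51, the regulators Insig1 (-0.62 ± 0.081, adjusted p = 2.20e-06) and Stard4, and the fatty acid genes Scd1 (-1.30 ± 0.13, adjusted p = 7.74e-08), Scd2, Acss2, Elovl6 and Fads1 (-0.87 ± 0.059, adjusted p = 9.29e-11, SE, edgeR). Sc5d was the gene called higher in shOpa1 than in shMtfr1l (0.30 ± 0.086, adjusted p = 0.00988, edgeR), and not without shMtfr1l replicate 1 (adjusted p = 0.0511). Fdps, at an adjusted p of 0.0491, lost its call with the replicate block (adjusted p = 0.0548), in a fit of these groups alone (0.0979), with no filter on low counts (0.0808) and without shMtfr1l replicate 2 (0.193) or 3 (0.0855) or shOpa1 replicate 1 (0.152) or 2 (0.178). Elovl6 lost its call without shMtfr1l replicate 2 (adjusted p = 0.0519). Idi1, not called with all libraries, was called lower in shOpa1 without shMtfr1l replicate 1 (log2 fold change -0.37, adjusted p = 0.0171, edgeR). Without that library Scd1 had a smaller log2 fold change, -1.01 (adjusted p = 1.34e-08, edgeR). The median log2 difference was -0.03 for the sterol enzymes and -0.15 for the fatty acid genes. All 9 cardiomyocyte markers were called lower in shOpa1 than in shMtfr1l as well, and 3 of 8 fibroblast markers were called higher and 2 lower. Their part in these differences was not tested.

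The double knockdown was then set against each single knockdown. Between the double knockdown and shMtfr1l, 12 of 34 genes were called lower in the double knockdown, where 11.3% of all genes were, and none higher, where 10.2% of all genes were. They were 4 sterol enzymes, 2 regulators and 6 fatty acid genes, among them Scd1 (log2 fold change -1.43 ± 0.13, adjusted p = 4.85e-08), Fads1 (-0.78 ± 0.059, adjusted p = 1.54e-09), Hmgcs1 (-0.65 ± 0.070, adjusted p = 3.63e-07) and Insig1 (-0.59 ± 0.080, adjusted p = 9.47e-06, SE, edgeR). Fdps, also among them, lost its call when any library of either group but shMtfr1l replicate 1 was left out (adjusted p from 0.0646 to 0.142). Without shMtfr1l replicate 1 the same numbers of sterol enzymes, regulators and fatty acid genes were called. Scd1 then had a smaller log2 fold change, -1.14 (adjusted p = 7.57e-09, edgeR). Between the double knockdown and shOpa1, 2 of 34 genes were called lower in the double knockdown, where 2.17% of all genes were, and none higher, where 2.05% of all genes were. These were Fads2 (-0.28 ± 0.071, adjusted p = 0.0255) and Scd2 (-0.25 ± 0.068, adjusted p = 0.0387, SE, edgeR). Leaving out any 1 of the 6 libraries ended the call of Fads2 (adjusted p from 0.0545 to 0.125). For Scd2 any 1 of the 6 but shOpa1 replicate 2 did so (adjusted p from 0.0600 to 0.210), and so did the replicate block (adjusted p = 0.0560). The difference in these counts was not itself tested, and more Mtfr1l RNA and more Opa1 RNA was left in the double knockdown than under the shRNA of each alone.

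The interaction term asks whether the double knockdown differs from the sum of the single knockdowns on the log2 scale. It was called, with a positive sign, for 3 of the 34 genes, where 1.27% of all genes were called positive and 1.59% negative. Hsd17b7 had an interaction of 0.70 ± 0.15 (adjusted p = 0.0106), Insig1 of 0.46 ± 0.11 (adjusted p = 0.0273) and Sqle of 0.40 ± 0.10 (adjusted p = 0.0324, log2, SE, edgeR). For these genes, the fall in the double knockdown was smaller than the falls of the single knockdowns added together. The median interaction was 0.34 over the sterol enzymes and 0.03 over the fatty acid genes. Mtfr1l and Opa1 themselves had interactions of 0.78 (adjusted p = 0.00732) and 0.84 (adjusted p = 0.0322, edgeR), each being less depleted in the double knockdown. The part of this weaker depletion in the interactions of the 3 genes was not tested. The count of 3 became 0 without replicate number 1 or 2 in all groups, 1 without shNT replicate 2 or shOpa1 replicate 1, and 5 without shMtfr1l replicate 3. Of 21 alternatives, 2 ended the call of Hsd17b7, 9 that of Insig1 and 10 that of Sqle. Without shMtfr1l replicate 1, the library with adipocyte markers, Insig1 was not called (0.37, adjusted p = 0.0825), while Hsd17b7 (0.70, adjusted p = 0.0315) and Sqle (0.43, adjusted p = 0.0418, edgeR) were. The Insig1 call also ended without replicate 1 or 2 of shNT, 1 or 2 of shOpa1, or 2 or 3 of the double knockdown (adjusted p from 0.0515 to 0.0847). The Sqle call ended with the replicate block (adjusted p = 0.0566) and without replicate 2 or 3 of shNT, 2 of shMtfr1l, 1 or 3 of shOpa1, or 1 of the double knockdown (adjusted p from 0.0619 to 0.105).

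Other genes of lipid synthesis and sterol handling were counted by list, beside shares over all genes called lower and higher of 11.6% and 11.8% in the double knockdown, 4.79% and 5% in shMtfr1l, and 14.8% and 14% in shOpa1. Of 14 tested genes in a list of other fatty acid synthesis and elongation genes, 3 were called lower and 2 higher in the double knockdown, 3 lower and 2 higher in shMtfr1l, and 4 lower and 2 higher in shOpa1. Slc25a1, the carrier that brings citrate out of mitochondria, had 67.7, 68.1 and 68.4 CPM in the double knockdown, 76.0, 80.0 and 70.9 CPM in shMtfr1l, 62.4, 71.9 and 69.3 CPM in shOpa1, and 109.7, 101 and 93.4 CPM in shNT. No knockdown group overlapped shNT. Slc25a1 fell by 0.57 in the double knockdown (adjusted p = 5.25e-06), 0.42 in shMtfr1l (adjusted p = 0.000524) and 0.58 in shOpa1 (adjusted p = 2.58e-06, log2, edgeR). Mid1ip1, which activates acetyl-CoA carboxylase, fell by 0.50 in shMtfr1l (adjusted p = 0.000761, log2, edgeR). Of 8 genes of sterol efflux, lysosomal sterol release and LXR signalling, 4 were called lower and 1 higher in the double knockdown, 1 lower in shMtfr1l, and 3 lower and 2 higher in shOpa1. Abca1, which exports cholesterol, fell by 0.61 in the double knockdown (adjusted p = 5.23e-06) and Scarb1, a receptor for high-density lipoprotein, rose by 0.66 in shOpa1 (adjusted p = 3.68e-05, log2, edgeR).

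Of 3 genes that act with Scap on SREBP, 1 was called lower in the double knockdown, 1 higher in shMtfr1l, and 1 lower and 1 higher in shOpa1. Among 9 other SREBP targets and sterol-handling genes, 1 was called lower and 1 higher in the double knockdown, 1 lower in shMtfr1l, and 1 lower and 2 higher in shOpa1. Among 7 genes of the isoprenoid branch, 1 was called lower and 2 higher in the double knockdown, none in shMtfr1l, and 1 lower and 2 higher in shOpa1. Of 3 genes of mitochondrial fatty acid synthesis, 1 was called higher in the double knockdown, none in shMtfr1l and 1 lower in shOpa1.

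The first set gave another view of Mtfr1l shRNA, with 1 labelled sample a group and therefore no test. Its samples held 62923192 counts for shMtfr1l and 67068683 for shNT, each summed over 3 count columns, and Mtfr1l stood at 8.73 CPM in shMtfr1l and 79.3 CPM in shNT. Of the 34 genes, 25 were lower in shMtfr1l by any amount (73.5%, against 49.8% of 13766 genes), 12 of 18 sterol enzymes, 5 of 5 regulators and 8 of 11 fatty acid genes. Their median log2 ratio was -0.08. Lower by more than 1.5-fold were 2 genes (5.88%, against 8.37% of all genes), Sc5d with 23.8 CPM in shMtfr1l and 47.1 CPM in shNT, and Hsd17b7 with 25.9 CPM in shMtfr1l and 40.3 CPM in shNT. None was higher by more than 1.5-fold, where 4.21% of all genes were. The 3 columns of shMtfr1l lay below those of shNT without overlap for 11 genes (22.3% of all genes did) and above them for 3, Mvd, Cyp51 and Acly (22.1% of all genes did).

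Sc5d and Hsd17b7 were also the sterol enzymes with the smallest adjusted p in shMtfr1l in the second set. Msmo1, with 52.4 CPM in shMtfr1l and 74.0 CPM in shNT, Sqle with 68.3 CPM in shMtfr1l and 88.3 CPM in shNT, and Elovl6 with a log2 ratio of -0.50 were lower in the first set too, with no overlap between columns. In contrast, Hmgcs1 had 119 CPM in shMtfr1l and 114 CPM in shNT there, and Cyp51 had 111 CPM in shMtfr1l and 97.6 CPM in shNT, neither of them lower in that set. Scd1 had 107 CPM in shMtfr1l and 129 CPM in shNT in the first set, where the adipocyte markers summed to 2.10 to 3.81 CPM in the shMtfr1l columns and 2.48 to 3.52 CPM in the shNT columns. The cardiomyocyte markers summed to 10990 to 12080 CPM in the shMtfr1l columns and 7229 to 7430 CPM in the shNT columns. Markers of dividing cells (315 to 328 CPM in shMtfr1l, 226 to 241 in shNT) and endothelial markers (35.3 to 37.0 CPM in shMtfr1l, 20.8 to 25.5 in shNT) were also higher without overlap. Lower without overlap were the sums of macrophage and leukocyte markers (68.8 to 96.1 CPM in shMtfr1l, 136 to 175 in shNT), smooth muscle markers (148 to 152 CPM in shMtfr1l, 201 to 208 in shNT), epicardial and mesothelial markers (72.9 to 88.4 CPM in shMtfr1l, 108 to 114 in shNT) and fibroblast markers (17401 to 18056 CPM in shMtfr1l, 18539 to 18905 in shNT). These first-set marker sums are scaled to library size alone, without TMM, and whether TMM scaling would change a gap between them was not tested. The part of these markers in the ratios of the 34 genes was not tested.

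**Figure D5:**
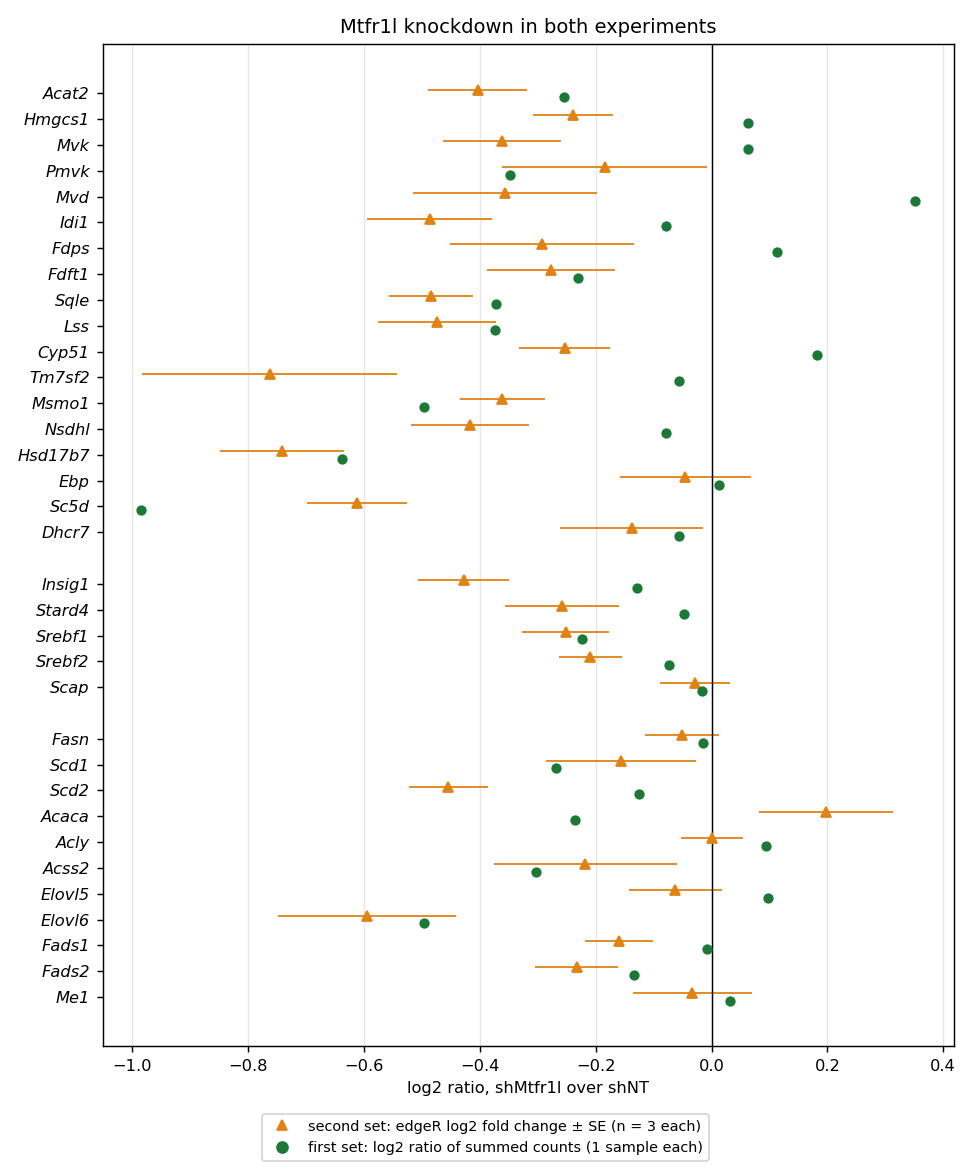
Log2 ratio of shMtfr1l over shNT for each of the 34 genes in the second set (triangles with standard error, n = 3 each) and in the first set (circles, 1 sample each, no test). Sc5d and Hsd17b7 are the lowest circles, at -0.98 and -0.64, and the median of the 34 genes is -0.08 for the circles and -0.26 for the triangles.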

How the data were processed

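Whole-number counts per gene were used as deposited. Per the file headers, the authors made these counts with featureCounts 2.0.6 against a UCSC annotation of mm10, as reverse-stranded paired reads, each mate counted by itself and reads that map to several places or genes left out. The submitters' processing notes also name FastQC and DESeq2, and the aligner was not found in the sources read. The members and lists were chosen with earlier results of these data known. Libraries were grouped by their titles; the genotype field numbers the Opa1 shRNA differently over its 3 replicates, while the titles do not.

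All 12 libraries of the second set entered 1 fit with edgeR 4.0.16 (R 4.3.3, TMM scaling, filterByExpr), a term per group, 8 residual degrees of freedom and quasi-likelihood tests with Benjamini-Hochberg adjustment over 14162 genes; calls are adjusted p under 0.05. The biological coefficient of variation was 12.0%. Errors are SD over libraries or SE of a log2 fold change, and intervals are 95%. A floor of 3 counts is 0.117 to 0.183 CPM, for counting error only. An exact permutation test of 3 against 3 cannot go below p = 0.1 and was not used. Genes given with test values are, per comparison, the called members with the smallest adjusted p in each list, and per-library values are those of the 3 smallest in each list in shMtfr1l and in shOpa1; Fasn, Acss2, Pmvk, Mvd, Ebp, Dhcr7, Tm7sf2, Scap, Acly and the other members named beyond this were chosen after their values were seen. Per the titles, libraries with the same replicate number share a day; their deviations from the group means correlated at -0.19 to 0.12, and the fit with the number as a block is given where it changes a call. The first set holds 3 count columns for each sample, summed before scaling; 12 count columns of other samples could not be tied to labels and were not used. The fits were also run on simulated counts, which held no difference between days and no outlying library, and no result here rests on that run. Alternatives were DESeq2 1.42.0, its size factors in edgeR, other filters, the replicate number as a block, only the groups compared, and each library left out. A robust fit, the first set without a filter and the contrast of shOpa1 with shMtfr1l were chosen after seeing the data.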

Additional observations from a re-analysis of the deposited data

Results flagged for a closer look

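Of the 34 genes, 3 were flagged because the interaction term was called for them. Hsd17b7 had an interaction of 0.70 on the log2 scale (adjusted p = 0.0106), Insig1 of 0.46 (adjusted p = 0.0273) and Sqle of 0.40 (adjusted p = 0.0324, edgeR quasi-likelihood test). Of 21 alternatives, 2 ended the call of Hsd17b7, 9 that of Insig1, among them leaving out shMtfr1l replicate 1 (0.37, adjusted p = 0.0825), and 10 that of Sqle, among them the replicate block (adjusted p = 0.0566). Each is positive with all libraries, so the double knockdown stood above the sum of the single knockdowns on that scale. Mtfr1l and Opa1 were themselves less depleted in the double knockdown, with interactions of 0.78 and 0.84. The part of this weaker depletion in the flagged interactions was not tested.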

How the results depend on the processing

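For 65 results of called members, those with the smallest adjusted p in each list and comparison, 1055 values were recomputed. Of these, 966 kept direction and side of the threshold, 89 kept direction but were no longer called, and 0 reversed. Other results named above are not in these counts. Among them, Elovl5 and Fasn in the double knockdown lost their calls in 10 and 5 of 16 alternatives. The log2 fold change of Scd1 in shMtfr1l ran from -0.48 to 0.0054. The count of members called in the interaction was 6 with DESeq2, 5 with no filter on low counts and 5 with a robust fit, against 3. How many of all genes these alternatives called is not given here. Between the double knockdown and shOpa1 the count was 1 with the replicate block, against 2. The replicate block ended the calls of Cyp51, Srebf1 and Fads2 in shMtfr1l, Elovl5 in the double knockdown, Scd2 between the double knockdown and shOpa1, Sqle in the interaction and Fdps between shOpa1 and shMtfr1l, and changed no other call of the named members; the cause was not tested. Leaving out replicates gave counts of 24 to 26 in the double knockdown, 10 to 18 in shMtfr1l and 20 to 24 in shOpa1 against shNT, 10 to 12 between the double knockdown and shMtfr1l, 0 to 1 between the double knockdown and shOpa1, 9 to 12 between shOpa1 and shMtfr1l, 0 to 5 in the interaction, and 22 to 26 members lower in the first set when a column was left out. A left-out library leaves a group with 2, and those fits use fewer samples. The shares of all genes called in these fits are not given here, so the member counts are not set against them. With 3 libraries a group, changes of small size may not pass the threshold, and a member not called is not shown to be equal.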
